A study of Mus musculus with 2 samples.

Results

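The small olfactory receptor (OR) clusters of the mouse are described here by the chromatin boundaries around and within them in mature olfactory sensory neurons. A cluster was a run of genes named Olfr, pseudogenes included, in which no gap between neighbours was over 1 Mb, and runs of 3 to 15 genes were kept. This gave 20 clusters on 13 chromosomes with 131 of the 1407 Olfr gene records of GENCODE mouse release 21, of which 116 were annotated as protein-coding and 15 as pseudogenes (2 of them polymorphic). Some genes with -ps in their name, such as Olfr721-ps1, are annotated as coding. The other genes lay in 19 clusters of 18 to 287 genes (1249 genes, the larger clusters below) or alone or in pairs (27 genes). Of the small clusters, 6 had the minimum of 3 genes and the largest, Olfr62 to Olfr1328 on chromosome 4, had 15, whereas the smallest of the larger clusters had 18. The clusters Olfr1379-ps1 to Olfr1374-ps1 and Olfr1373 to Olfr1371 on chromosome 11 were kept apart by a gap of 1001 kb, just over the limit. The cluster Olfr291 to Olfr290 met the minimum only because the annotation lists 2 records named Olfr290, so the 131 records carry 130 names.

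The data were an in situ Hi-C experiment, which joins and sequences DNA ends that lie together in the fixed nucleus, on mature neurons sorted by FACS from adult OMP-GFP mice of mixed sex. The GFP reporter follows the gene of the olfactory marker protein, which marks mature olfactory neurons. The strain on the labels is 129P2/OlaHsd, with no treatment given. The 2 biological replicates, of 3000000 and 1500000 cells, form a single group with no control or second cell type. Chromatin was fixed with 1% formaldehyde for 10 min and cut with DpnII. Boundaries had been called on the combined map of both replicates, so no value below has a spread between replicates and no difference between sets of regions was tested. Hi-C carries no RNA level, so neither the markers of the cell type nor the expression of any receptor could be read here.

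OR genes encode the G protein-coupled receptors of the nose. Each mature neuron transcribes an allele of a single OR gene, while the other OR genes are kept in silent heterochromatin, and OR clusters of different chromosomes meet in the nucleus of these neurons. A boundary is a place where contacts between its left and right side are fewer than around it, and it separates neighbouring contact domains. Many mammalian boundaries form where cohesin, extruding a loop of DNA, is stopped by the protein CTCF, and the orientation of the CTCF site decides from which side cohesin is stopped. Other boundaries lie at active promoters and at borders between active and silent chromatin. The map here is an average over neurons that had chosen different receptors.

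The deposited list held 8058 boundaries of 5 kb on GRCm38. Their class was Strong for a strength over 0.5 and Weak for 0.2 to 0.5, where strength is the authors' score and has no stated scale. Strong boundaries made up 50.8% of the list, and the median strength was 0.509 with a maximum of 4.32. Distances below were counted between 5 kb bins, and a boundary in the bin of the feature has a distance of 0 kb.

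Of the 26 boundaries within 50 kb of an edge of a small cluster, 5 had an exact match to the CTCF core consensus, a motif of 14 bases, within 20 kb (19.2%), and all 5 were Strong. The share was 21.9% over all boundaries, 30.3% over Strong boundaries and 8% over the 25 boundaries at edges of the larger clusters (2 boundaries). The 5 boundaries had 6 matches, of which the 2 at Olfr155 share a boundary. The matches are shown here because all 6 were oriented with the core pointing into the cluster and 0 away from it. Of the matches at the larger clusters 1 pointed in and 1 away. Orientation was not counted over other boundaries, and it was not tested. Capitals mark the match, each sequence runs 5′ to 3′ along the strand that carries the core, and the bases are those of the GRCm38.p6 reference. That reference is of another strain than the one on the labels, so the bases of these mice can differ.
Olfr291 left edge, chr7:84805397-84805450, plus strand: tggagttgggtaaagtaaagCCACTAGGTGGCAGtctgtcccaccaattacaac
Olfr62 left edge, chr4:118612884-118612937, plus strand: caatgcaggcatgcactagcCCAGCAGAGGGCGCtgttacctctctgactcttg
Olfr12 right edge, chr1:92611202-92611231, minus strand: atcagtgcCCAGTAGGTGGCAGtgtaggat
Olfr155 right edge, chr4:43861313-43861366, minus strand: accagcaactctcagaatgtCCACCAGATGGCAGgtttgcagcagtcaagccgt
Olfr155 right edge, chr4:43863498-43863551, minus strand: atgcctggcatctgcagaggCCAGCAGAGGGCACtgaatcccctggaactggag
Olfr1344 left edge, chr7:6434731-6434784, plus strand: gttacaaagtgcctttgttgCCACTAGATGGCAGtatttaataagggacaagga
The first of these, in no coding gene, was 5 kb from its boundary (strength 2.29). The second was 15 kb from a boundary that also scored 2.29, and the stretch shown reached into a coding exon of Cfap57. The match at Olfr12 lay 10 kb from a boundary of strength 1.78, in a UTR of the neighbouring receptor gene Olfr1410. Both matches at Olfr155 lay 20 kb from the boundary of strength 1.69 and in no coding gene. The match at Olfr1344 lay 10 kb from a boundary of strength 0.574, in an intron of the gene model Gm20715. Within the spans themselves there were 7 matches, or 1.47 per Mb, and 15 clusters held none, against 1.07 per Mb in the larger clusters and 2.57 per Mb of callable genome (bins without undetermined bases). No match says only that these letters are not there, and no CTCF binding was measured.

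Boundaries stood close to most edges of the small clusters. Of the 40 edges, 26 had a boundary within 50 kb (65.0%, 95% exact Clopper-Pearson interval 48.3 to 79.4%, which covers the counting of edges only), against 33.0% of all 511497 callable bins. The share at the edges of the larger clusters was 65.8% (25 of 38). A Strong boundary lay within 50 kb of 19 small-cluster edges (47.5%), against 16.8% of callable bins. Counted in steps outward, 4 edges had a boundary in their own bin, 7 within 5 kb, 12 within 20 kb and 32 within 100 kb, which left 8 edges farther away. Callable bins were counted at 50 kb only, so these steps have no background share beside them. The distance had a median of 40 kb (quartiles 15 and 71.2 kb, range 0 to 230 kb), and in the larger clusters a median of 32.5 kb (quartiles 5 and 78.8 kb, range 0 to 205 kb). The distances of the small and larger clusters thus spanned overlapping ranges.

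**Figure D1:**
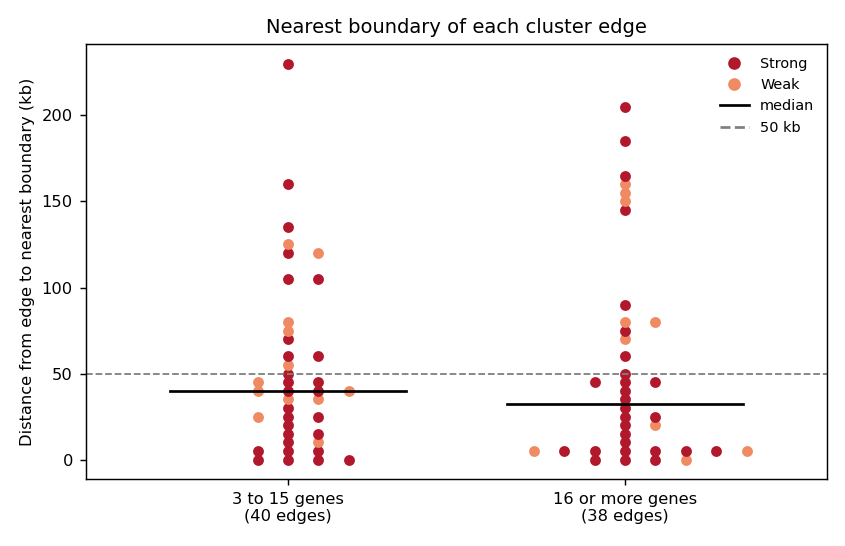
Distance in kb from each cluster edge to its nearest boundary, for the 40 edges of small clusters and the 38 edges of clusters of 16 or more genes; points are edges coloured by the class of the boundary, solid bars are medians and the dashed line is 50 kb. The medians were 40 and 32.5 kb, and both sets of edges ran from 0 kb to over 200 kb.

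The boundaries at the edges were mostly Strong. Of the 26, 19 were Strong and 7 Weak (73.1% Strong), against 50.8% in the whole list and 84.0% at the larger clusters (21 of 25). The 95% exact interval of 52.2 to 88.4% covers the counting of boundaries only and is no test against these shares. Their strength had a median of 0.770 (quartiles 0.517 and 1.65, range 0.254 to 2.29), above the median of 0.509 over all boundaries and below the 1.17 at the larger clusters. The strongest boundary at a small-cluster edge scored 2.29, and the maximum of 4.32 is that of the whole, much larger list. In the strength plot each step from 2.3 upward held 0.372% or less of all boundaries. The boundary midpoint lay inside the cluster for 10 of the 26 and outside for 16.

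**Figure D2:**
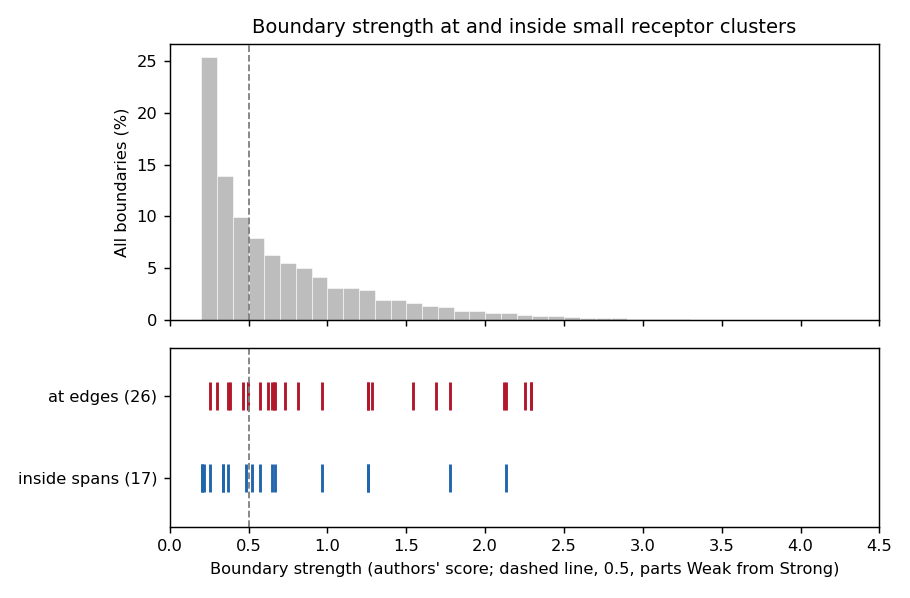
Upper panel: strength of all 8058 boundaries (authors' score, share in percent per step). Lower panel: each tick is a boundary within 50 kb of a small-cluster edge (26, red) or with its midpoint inside a span (17, blue), and 10 boundaries are in both rows. Edge boundaries reached 2.29, and the dashed line at 0.5 divides Weak from Strong.

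By cluster, 7 of the 20 had both edges marked by a boundary within 50 kb, 12 had only 1 edge marked and 1 had none, and the larger clusters gave 7, 11 and 1 of 19. Both edges had a Strong boundary in 4 small clusters and in 5 larger ones. Those 4 were Olfr288 to Olfr278-ps1, Olfr62 to Olfr1328, Olfr70 to Olfr155 and Olfr372 to Olfr374. The map of the clusters shows them with their boundaries.

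**Figure D3:**
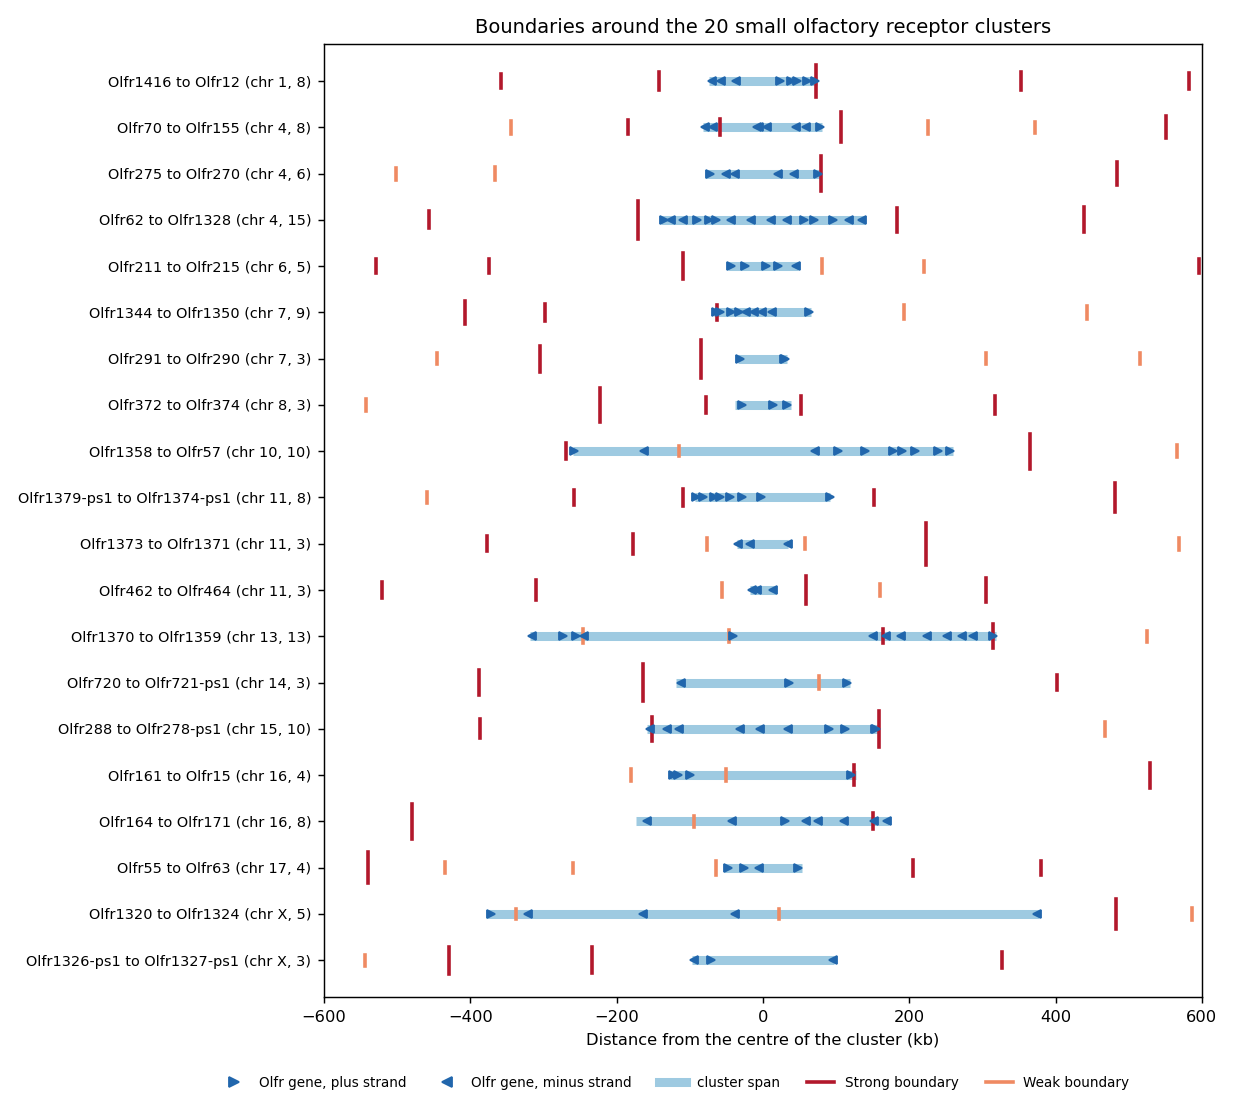
The 20 small clusters, 1 per line with chromosome and number of genes, centred on the middle of the span (x axis, kb); bars are spans, triangles are Olfr genes pointing in the direction of transcription, and vertical ticks are boundaries, taller with higher strength. Ticks lay within 50 kb of both bar ends in 7 clusters and of neither end in 1, the lowest line.

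The cluster Olfr288 to Olfr278-ps1 on chromosome 15 was the only small cluster with boundaries within 20 kb of both edges. Its 10 genes span 317 kb, and its boundaries lay 5 kb from the left edge (chr15:98190001-98195000, strength 1.26) and in the bin of the right edge (chr15:98500001-98505000, strength 2.13). The left boundary fell in an intron of Olfr288 and the right one on the last exon and UTR of Olfr279, which overlaps the pseudogene Olfr278-ps1. All 10 receptor genes started between these boundaries, in an interval of 310 kb that also held the starts of 5 other coding genes. Among those were Lalba, which encodes the milk protein alpha-lactalbumin, H1fnt, a histone H1 gene of the testis, and OR5BS1P, which was counted with the others because its name does not start with Olfr.

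The cluster Olfr62 to Olfr1328 on chromosome 4, the largest by genes, had no boundary inside its 280 kb. Its left boundary (chr4:118625001-118630000, strength 2.29, 30 kb away) lay on an exon of Ebna1bp2, a gene of ribosome biogenesis, and its right boundary (chr4:118980001-118985000, strength 1.28, 45 kb away) lay near the start of Lao1, an L-amino acid oxidase. All 15 receptor genes started in an interval of 355 kb whose only other coding start was that of Lao1. These 15 genes lay 30 to 175 kb from the nearest boundary, so none of them was close to it.

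The clusters Olfr70 to Olfr155 and Olfr372 to Olfr374 also had a Strong boundary at each edge. Olfr70 to Olfr155 had boundaries 25 kb from either edge. The left one (0.665) lay inside the cluster, between Olfr71 and Olfr269-ps1. The right one (1.69) lay in an intron of Reck, which encodes a membrane-bound inhibitor of matrix metalloproteinases. The 3 genes of Olfr372 to Olfr374 on chromosome 8 lay between a boundary of 0.621 on an exon of the cytochrome P450 gene Cyp4f18, 40 kb to the left, and one of 0.810 on an exon of the tropomyosin gene Tpm4, 15 kb to the right.

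In the other 3 clusters with both edges marked, at least 1 boundary was Weak. Olfr462 to Olfr464 on chromosome 11, the shortest at 36.0 kb, had boundaries of 0.467 and 1.54. Olfr1373 to Olfr1371, also on chromosome 11, had 0.380 on the left, in an intron of the phosphatase gene Ppp2ca, and 0.302 on the right, on an exon of the ubiquitin ligase gene Skp1a. Olfr720 to Olfr721-ps1 on chromosome 14 had 2.25 on the left and 0.372 on the right, the latter inside the cluster.

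Among the clusters with a single marked edge, the unmarked edge lay 55 to 160 kb from its nearest boundary. Olfr275 to Olfr270 on chromosome 4 was the most uneven, with 2.12 in the bin of its right edge, on the last exon of Olfr270, while its left edge had no boundary nearer than that same one, 160 kb away. Olfr1416 to Olfr12 on chromosome 1 had 1.78 in the bin of its right edge and a boundary of 0.803 some 70 kb from its left edge. In 3 clusters (Olfr275 to Olfr270, Olfr291 to Olfr290 and Olfr55 to Olfr63) the same boundary was the nearest to both edges. The cluster Olfr1326-ps1 to Olfr1327-ps1 on chromosome X had neither edge marked, with the nearest boundaries 135 kb (1.42) and 230 kb (0.677) away and 3 receptor genes among 4 other coding genes in an interval of 560 kb.

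The boundaries at the edges lay close to genes of other families. At 19 of the 26 the start of a coding gene that is no Olfr gene lay within 20 kb (73.1%), against 36.8% over all 8058 boundaries, and this was so for 13 of the 19 Strong and 6 of the 7 Weak ones. A receptor gene of the cluster started within 20 kb at 12, and 3 had neither. Cluster edges often border on such genes whether or not a boundary is present, and this share was not tested against edges alone.

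The nearest coding gene outside each cluster could be named at 39 edges, since none lay to the left of Olfr161 on chromosome 16. A boundary midpoint fell between it and the outermost receptor gene at 12 of the 39 edges, and at 27 none did. Over neighbouring coding genes outside the Olfr family the share with a boundary between was 19.6%, at a median gap of 17.1 kb against 27.9 kb for the 39 edges. The gap was wider where there was one, with a median of 55.5 kb against 17.9 kb. Ordered by strength, the genes set apart by a boundary were Zfand6 from Olfr291 (2.29), the proteasome gene Psmd6 from Olfr720 (2.25), Nipsnap3a from Olfr270 (2.12), and the histone chaperone gene Hira from Olfr164 (2.02). Next came the kinase gene Stk26 from Olfr1324 (1.76), the dynein light chain gene Dynll2 from Olfr464 (1.54) and Tpm4 from Olfr374 (0.810). The pyridoxal kinase gene Pdxk was set apart from Olfr1358 (0.661), the bicarbonate transporter gene Slc4a7 from Olfr721-ps1 (0.617) and Gm12569 from Olfr1374-ps1 (0.557). The 2 remaining boundaries were Weak and separated the zinc finger gene Zfp422 from Olfr215 (0.498) and Morc2b from Olfr55 (0.493). Of the 39 neighbours, 18 started within 20 kb of a boundary, where the share over all coding genes was 21.2%.

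Taking the interval between neighbouring boundaries as the unit, the starts of the 131 receptor genes fell in 32 intervals with a median length of 250 kb (range 115 to 620 kb). Adjacent boundaries over the whole list lay a median of 260 kb apart. All receptor genes of a cluster started in the same interval in 12 clusters, and in 8 they were spread over more. Only 6 of the 32 intervals (18.8%) held no other coding start, and these held 18 of the 131 receptor genes (13.7%). In the larger clusters 34 of 89 intervals (38.2%) with 529 of 1249 receptor genes (42.4%) held none. That difference was not tested, and the larger clusters have more receptor genes by definition. The other 26 intervals held 74 other coding genes. Receptor genes outnumbered them in 21 of the 32 intervals, were outnumbered in 7 and were equal in number in 4.

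**Figure D4:**
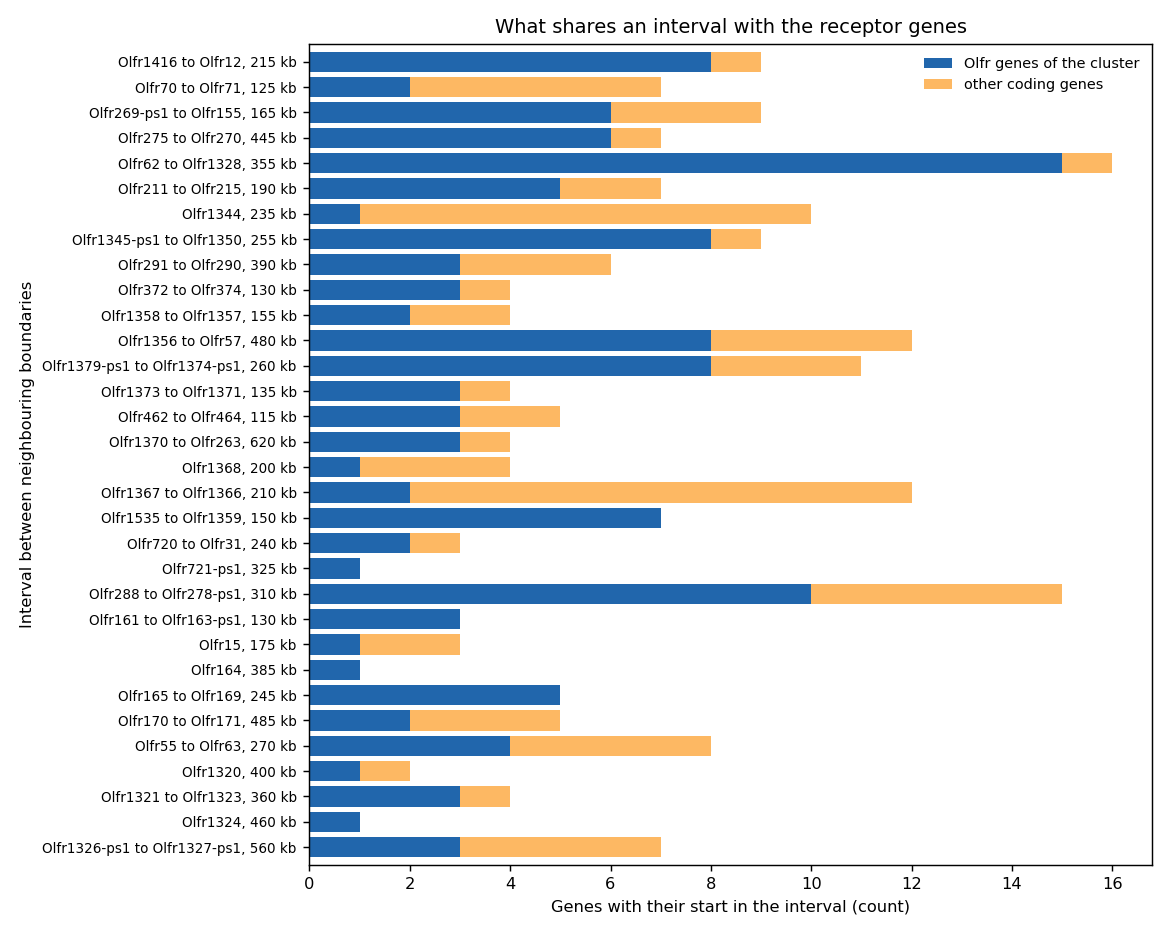
Number of coding and pseudogene Olfr starts (blue) and of other coding gene starts (orange) in each of the 32 intervals between neighbouring boundaries that hold a receptor gene of a small cluster; labels give the first and last receptor gene and the length of the interval. In 6 intervals no orange part is present, and the largest number of other genes was 10.

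Of the 6 intervals with receptor genes alone, 5 lay at an end of their cluster. All 6 belonged to clusters spread over more than 1 interval, in which most intervals lie at an end. The count is therefore no trait of these 6. The fullest was the right end of the chromosome 13 cluster, where 7 genes from Olfr1535 to Olfr1359 lay in 150 kb between boundaries of 0.519 and 1.26. On chromosome 16, 5 genes from Olfr165 to Olfr169 lay in 245 kb between 0.214 and 0.648, and 3 genes from Olfr161 to Olfr163-ps1 lay in 130 kb between 0.297 and 0.336. The other 3 such intervals held a single receptor gene each, Olfr721-ps1, Olfr164 and Olfr1324. At the opposite end, Olfr1344 shared its interval of 235 kb with 9 other coding genes, 5 of them named zinc finger genes, and Olfr1367 and Olfr1366 shared 210 kb with 10, among them Zkscan3, Zkscan4 and Zkscan8.

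Boundaries also lay within the clusters. Counted by midpoint, 17 were inside the 20 spans (9 Strong and 8 Weak, 52.9% Strong), which together cover 4.78 Mb. Their density was 3.56 per Mb, against 3.15 per Mb of callable genome and 2.90 per Mb in the larger clusters (89 boundaries, 38.2% Strong). Of the 17, 10 were also among the 26 boundaries at edges, and of the 89, 12 were also among the 25 there. Density and Strong share thus include edge boundaries. Most of the Strong ones in the small clusters stood at the ends: over 50 kb from both ends there were 7 boundaries, 1 Strong and 6 Weak. The shortest spans, such as that of 36.0 kb, have no part at that depth. The share of sequence near the ends was not counted. The larger clusters, whose spans are longer, had 25 Strong and 52 Weak at that depth. Inside boundaries had a median strength of 0.519 (range 0.202 to 2.13). The cluster Olfr1370 to Olfr1359 on chromosome 13 supplied 4 of the 17, and 13 remained without it.

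No boundary crossed 10 of the small clusters and 10 were crossed, 5 of these by a single boundary. The uncrossed clusters were shorter, with a median span of 101 kb (range 36.0 to 280 kb) against 285 kb (range 133 to 756 kb), and the ranges overlapped. Of the larger clusters, which span a median of 1253 kb, 1 was uncrossed. Counting Strong boundaries alone, 13 small clusters were uncrossed.

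A boundary midpoint fell between neighbouring receptor genes in 10 of 111 neighbour pairs (9.01%), against 56 of 1230 pairs in the larger clusters (4.55%) and 19.6% of the 17785 pairs of neighbouring coding genes outside the Olfr family. Gaps differ between these sets, and the pairs parted by a boundary had wider gaps (median 80.8 kb) than the others (13.9 kb). The widest parted gaps were those of Olfr1323 and Olfr1324 (402 kb, strength 0.202), Olfr1357 and Olfr1356 (227 kb, 0.204), Olfr163-ps1 and Olfr15 (212 kb, 0.336) and Olfr1368 and Olfr1367 (201 kb, 0.336). The narrowest were those of Olfr1344 and Olfr1345-ps1 (4.71 kb, 0.574) and of Olfr1366 and Olfr1535 (11.1 kb, 0.519). In these 2 pairs, each read from a single strand, the midpoint of a Strong boundary lay in the gap. Its 5 kb interval also covered part of Olfr1344 in the first pair and of Olfr1535 in the second. The resolution of 5 kb therefore cannot place these boundaries strictly between the genes. Of the 10 parted pairs, 8 were in tandem, 1 divergent and 1 convergent, where 83 of all 111 pairs were in tandem (74.8%).

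The share of receptor genes that started within 20 kb of a boundary was near that of all coding genes. The transcription start lay within 20 kb of a boundary for 23 of the 131 genes (17.6%, 95% exact interval 11.5 to 25.2%), against 21.2% of all 21755 protein-coding genes and 11.3% of the 1249 receptor genes of the larger clusters. Among receptor genes alone or in pairs it was 3 of 27 (11.1%). Within 50 kb of the start the share was 48.9% of the 131 genes, against 33.0% of callable bins. That difference was not tested. The distance had a median of 55.0 kb (quartiles 30.0 and 100 kb, range 5 to 230 kb), and a median of 100 kb in the larger clusters. No start shared its bin with a boundary, 11 were within 5 kb and 33 were over 100 kb away. Genes of a cluster share boundaries, and the 23 genes belonged to 15 boundaries of 11 clusters. The interval counts each gene as separate, so it is too narrow and is no test against the other shares. The chromosome 13 cluster held 6 of them, and without it the share was 14.4%.

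**Figure D5:**
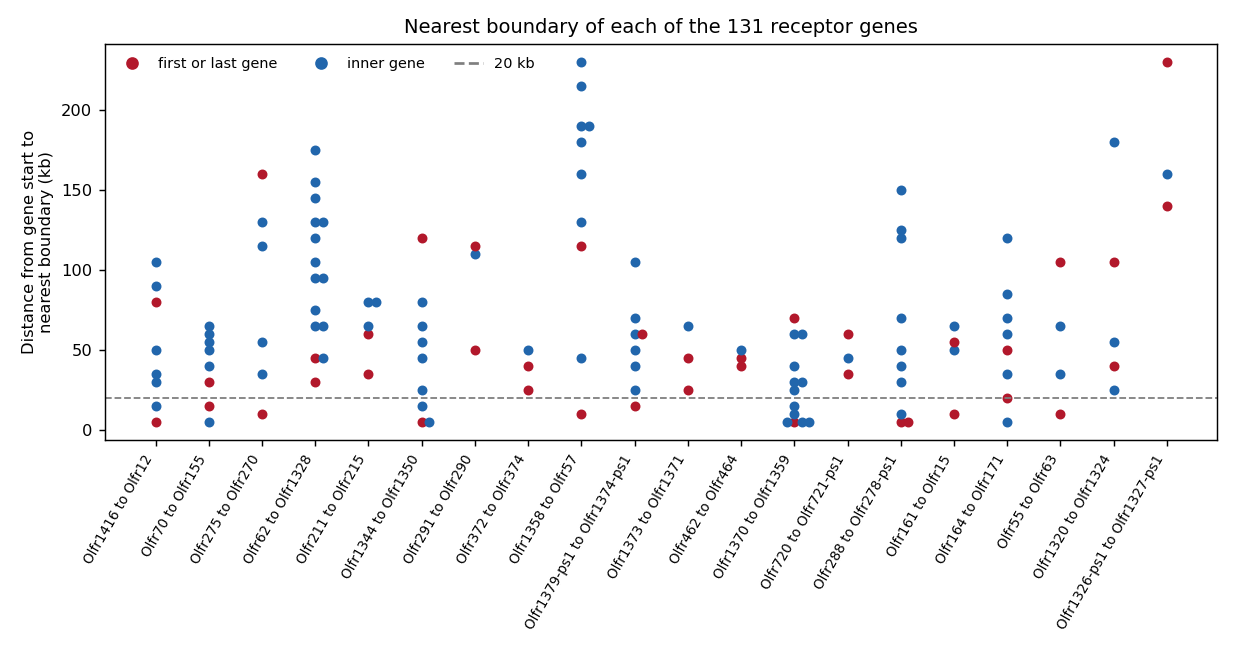
Distance in kb from the transcription start of each of the 131 receptor genes to its nearest boundary, by cluster; red points are the first and last gene of the cluster, blue points the inner genes, and the dashed line is 20 kb. On or under the line were 12 of 40 first or last genes and 11 of 91 inner genes.

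Position in the cluster went with distance. First and last genes define the cluster edges, so this repeats in part the count of boundaries at edges. Of the 40 first and last genes 12 started within 20 kb of a boundary (30.0%), and of the 91 inner genes 11 did (12.1%). In the larger clusters these shares were 39.5% (15 of 38) and 10.4% (126 of 1211). Pseudogenes made up 3 of the 23, out of 15.

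Of the 23 genes, 19 were nearest to a Strong boundary and 4 to a Weak one. In the larger clusters 52 of 141 such genes were nearest to a Strong boundary and 89 to a Weak one, and 50.8% of all boundaries were Strong. That difference was not tested, and genes of a cluster share boundaries. Olfr279 (10 kb) and Olfr278-ps1 (5 kb) lay by the boundary of 2.13 and Olfr270 (10 kb) by that of 2.12. Olfr12 (5 kb) and Olfr1410 (15 kb) shared the boundary of 1.78, Olfr288 (5 kb) and Olfr1359 (5 kb) lay by separate boundaries that both had 1.26, and Olfr15 (10 kb) lay by one of 0.966. Olfr1379-ps1 (15 kb) followed with 0.729, then Olfr70 (15 kb) and Olfr71 (5 kb) with 0.665. The remaining Strong ones ran from 0.519 to 0.661 and comprised Olfr1358, Olfr170, Olfr171, Olfr1344, Olfr1345-ps1, Olfr1336, Olfr1366 and Olfr1535. Near Weak boundaries were Olfr55 (0.493), Olfr263 and Olfr1368 (0.486) and Olfr1367 (0.336).

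At 8 edge boundaries the 5 kb interval covered part of a receptor gene. In 6 of these the gene was transcribed outward, away from the cluster (Olfr279, Olfr270, Olfr12, Olfr288, Olfr1359 and Olfr15), and their boundaries were the 6 strongest of the 8, from 0.966 to 2.13. Olfr170 (0.648) and Olfr1344 (0.574) were transcribed inward. Among all 40 first and last genes 22 were transcribed outward and 18 inward. Olfr279 and Olfr170 are inner genes and are not among these 40. No start shared a bin with a boundary, but the starts of these 8 genes lay only 5 or 10 kb away, counted in bins. The start of Olfr288 (chr15:98195542) lay just past the end of its boundary (98195000). The resolution of 5 kb therefore cannot tell the starts of these genes from their bodies.

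The promoters of OR genes are known for binding sites of EBF and of homeodomain factors such as LHX2, which act in OR transcription. The motifs CCCNNGGGA (EBF) and TAATTA (homeodomain) were searched on both strands from 250 bases before to 50 after the start of the 116 coding genes. EBF matches were found in 17 (14.7%), against 10.3% in the larger clusters and 7.79% of all coding genes. Homeodomain matches were found in 20 (17.2%), against 25.1% and 5.22%. Both were found in 4 genes (Olfr12, Olfr1357, Olfr282 and Olfr1323; 3.45%), against 1.99% and 0.262%. GC content, which bears on how often such letters occur, was 43.4%, 37.4% and 55.2% in the 3 sets.

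The 250 bases before the start are printed for the 3 coding genes that lay 5 kb from a boundary of strength over 1, chosen after their values were seen, because in these the upstream region, the gene and the boundary lie side by side. Capitals mark motif matches, and bases run 5′ to 3′ along the strand of the gene in the GRCm38.p6 reference, again of another strain than these mice.
Olfr12, chr1:92617538-92617787, plus strand: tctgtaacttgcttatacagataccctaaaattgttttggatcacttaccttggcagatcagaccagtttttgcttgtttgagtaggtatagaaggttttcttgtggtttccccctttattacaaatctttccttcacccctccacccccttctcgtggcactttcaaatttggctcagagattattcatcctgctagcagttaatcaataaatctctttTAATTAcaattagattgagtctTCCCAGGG
Olfr1359, chr13:21697861-21698110, plus strand: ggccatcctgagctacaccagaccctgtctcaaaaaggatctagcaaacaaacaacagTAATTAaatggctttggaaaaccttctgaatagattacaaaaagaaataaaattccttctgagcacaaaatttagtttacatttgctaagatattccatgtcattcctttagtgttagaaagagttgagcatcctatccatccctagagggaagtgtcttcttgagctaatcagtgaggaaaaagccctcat
Olfr288, chr15:98195543-98195792, minus strand: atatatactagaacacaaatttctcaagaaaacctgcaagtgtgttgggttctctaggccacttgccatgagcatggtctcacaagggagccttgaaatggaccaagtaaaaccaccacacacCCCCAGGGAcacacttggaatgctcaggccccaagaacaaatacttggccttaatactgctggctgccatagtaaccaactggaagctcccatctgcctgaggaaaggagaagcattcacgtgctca
Olfr12 had both motifs, the EBF match running past the printed end, Olfr1359 had the homeodomain match and Olfr288 the EBF match. Of the other coding genes that lay 5 kb from a boundary, Olfr1344, Olfr1367, Olfr1368 and Olfr1535 had neither motif. Olfr71 and Olfr170 had homeodomain matches. A link between motifs and boundaries was not tested. A match describes letters and was not shown to be bound.

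The clusters varied in build. Spans ran from 36.0 to 756 kb with a median of 174 kb, and gaps between neighbouring genes had a median of 14.4 kb and a maximum of 402 kb. Strands were almost evenly used, with 66 genes on the plus and 65 on the minus strand, but neighbours shared the strand in 74.8% of pairs (69.0% in the larger clusters) and 6 clusters lay on a single strand. In 12 clusters coding genes of other families lay within the span. GC content was 41.5% over the small clusters (38.7 to 45.9% by cluster), 39.2% over the larger ones and 41.8% over callable sequence. Repeats marked by soft masking covered 44.8%, 45.6% and 34.3%. DpnII sites, which set how finely Hi-C can resolve contacts, numbered 2.83, 2.77 and 2.51 per kb, and no base of the spans was undetermined. The part of composition in the boundary counts was not tested.

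Of 28 genes that act with the receptors, in odorant signalling, receptor trafficking and OR gene choice, 8 (28.6%) started within 20 kb of a boundary, against 21.2% of all coding genes, a difference that was not tested. In signalling these were Gnal (2.31), which encodes the olfactory G protein alpha subunit, Gng13 (1.03), a G protein gamma subunit, and the phosphodiesterase gene Pde4a (0.809). In gene choice they were the transcription factor genes Ebf3 (2.61), Emx2 (2.35), Lhx2 (0.347) and Atf5 (0.347) and the histone methyltransferase gene Ehmt1 (0.875). Omp, Adcy3 and Cnga2, the genes of the olfactory marker protein, the adenylyl cyclase and the channel of the odorant response, were 55, 45 and 55 kb from a boundary.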

How the data were processed

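Per the series design text, the authors combined the contacts of both replicates on GRCm38 and called boundaries on the combined map, and the deposited list gives each 5 kb boundary a class and a score, the boundary strength. The caller and aligner were not given in the sources used here. Contact lists, matrices, insulation and compartment tracks were not used here, so contact depth is unknown. Genes came from GENCODE mouse release 21 and sequence from the GRCm38.p6 RefSeq assembly, in which all 1281 single-exon Olfr transcripts matched exactly. The assembly is of another strain than the mice, so gene content and motif matches are those of the reference. Members and lists were chosen with earlier results of these data known. Members were named where they lay within 20 kb of the strongest boundaries (10 genes), and neighbours where a boundary lay between (12); other names were chosen after their values were seen. Counting with Python 3.11.15 and numpy 2.4.6 was tested on simulated boundaries, intervals came from scipy 1.17.1 and figures from matplotlib 3.10.9. Regions are not replicates, so no test was made. Promoters were planned from the RefSeq promoter table, but for the 90 members found there its starts lay a median of 3258 bases from the GENCODE starts (70 over 1 kb away), so the genome was read at the GENCODE starts. A planned description of proteins was not run.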

Additional observations from a re-analysis of the deposited data

How the results depend on the processing

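Of 42 alternative values, 33 stayed within the 95% interval or 1.5 times the count and 9 moved further, and each of those 9 changed a window or kept a class alone. The interval served as a yardstick only, since genes and edges of a cluster are not independent. The share of edges with a boundary was 30.0% within 20 kb, 80.0% within 100 kb and 47.5% with Strong boundaries only, and the clusters with both edges marked numbered 1, 13 and 4. For Strong boundaries within 50 kb the share of callable bins was 16.8%. It was not counted at 20 or 100 kb, so the shares at those windows cannot be set against background. The share of receptor genes was 48.9% within 50 kb of the start, against 33.0% of callable bins with a boundary within 50 kb. The share over all coding genes was counted at 20 kb only. Inside boundaries numbered 9 with Strong ones only and 7 over 50 kb from both ends. With gaps of at most 0.5 or 2 Mb, coding genes only, or without the Olfr1370 to Olfr1359 or the Olfr291 to Olfr290 cluster (chosen after seeing the data), the share of edges ran from 64.7 to 66.7%. No paired analysis was possible because the boundaries were called on the combined replicates, so no replicate could be left out either. The list starts at a strength of 0.2, the depth of the contact map is unknown here, and distances are no finer than 5 kb.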
